A study of Homo sapiens with 18 samples.

Results

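Of 11222 RNAPII peaks that the authors listed for untransformed MCF10A-ErSrc cells, 529 sat on divergent promoters and were kept in every condition. MCF10A-ErSrc is a human breast epithelial line that carries a v-Src oncoprotein that tamoxifen activates. NT cells received DMSO for 4 h, NT + TPL cells received TPL for 4 h at the labelled dose (TPL-125nM), and TAM and TAM + TPL cells were the tamoxifen-transformed cells given DMSO or the same TPL dose. All 4 groups carry the same ErSrc construct, and all libraries used here come from this single line. ChIP-Seq of RNAPII gave 1 deposited peak list per condition, and RNA-Seq of poly-A RNA gave 2 libraries per condition, described as independent biological replicates.

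A member is an NT peak under 3000 bp that overlaps a peak in each of the TAM, NT + TPL and TAM + TPL lists and holds the canonical transcription start sites (TSSs) of at least 2 protein-coding genes on opposite strands, by GENCODE release 44 on hg19. These members were chosen by the overlap of the 4 peak lists, so that overlap is described here and not tested. RNA did not enter the rule. The 529 peaks hold 1058 partner genes, here called the minus-strand and the plus-strand gene. Of these genes, 1043 were listed in at least 1 RNA-Seq library and 1015 had enough counts for a test. Both partners could be tested in 489 pairs, a single partner in 37 and neither in 3. The remaining 15 genes had no entry that could be joined to them, and 28 had too few counts.

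Divergent promoters place a pair of genes back to back, so that a single stretch of open chromatin serves a start site on each strand. Each start site assembles its own preinitiation complex, in which the XPB subunit of TFIIH opens the DNA before RNAPII can start. TPL binds XPB covalently and blocks this step. Promoters of this kind are typically rich in CpG and poor in TATA boxes, and they often serve genes of DNA repair, RNA metabolism and mitochondria.

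The 2 TSSs lay close together at most members. In 498 pairs the genes pointed away from each other, with a median of 166 bp between the TSSs (quartiles 96.2 and 280 bp), and 394 of these pairs (79.1%) had 300 bp or less. In the other 31 pairs the plus-strand TSS lies at a lower position than the minus-strand TSS, with a median distance of 264 bp. Where such genes are long enough their 5′ ends overlap, but gene ends were not compared. The closest TSSs were those of MANSC4 and KLHL42, which overlap by 3 bp, and of CIR1 and SCRN3, 18 bp apart. The most distant were those of the histone genes H1-5 and H2AC16, 2271 bp apart with the plus-strand TSS at the lower position, and of GPBP1L1 and TMEM69, 1648 bp apart. Most peaks (486) held exactly 2 genes, 42 held 3 and 1 held 4.

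The stretches between the TSSs of 6 pairs are shown because the RNA of these genes is described in detail below. The stretches were not related to the RNA changes by any test. In XPO5/POLH, MBLAC2/POLR3G and MBTD1/UTP18 both genes passed the stricter of the 2 calls used below for TPL in NT cells. In MED22/RPL7A and SURF1/SURF2 one partner rose and the other fell in NT cells, and in SARS2/MRPS12 both fell. They are read on the plus strand of hg19, from the minus-strand TSS on the left to the plus-strand TSS on the right, and for MBTD1/UTP18 only the middle 300 of the stretch are printed. Capitals mark the GC box (GGGCGG), the CCAAT box (CCAAT) and the ETS core (CCGGAAG) on either strand.
XPO5/POLH, chr6:43543775-43543922: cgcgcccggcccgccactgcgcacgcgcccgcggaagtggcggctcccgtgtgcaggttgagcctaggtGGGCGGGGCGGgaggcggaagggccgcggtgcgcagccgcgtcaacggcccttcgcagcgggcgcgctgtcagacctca
MBLAC2/POLR3G, chr5:89770588-89770681: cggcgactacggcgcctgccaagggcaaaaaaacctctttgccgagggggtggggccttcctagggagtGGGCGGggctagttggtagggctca
MBTD1/UTP18, chr17:49337509-49337808: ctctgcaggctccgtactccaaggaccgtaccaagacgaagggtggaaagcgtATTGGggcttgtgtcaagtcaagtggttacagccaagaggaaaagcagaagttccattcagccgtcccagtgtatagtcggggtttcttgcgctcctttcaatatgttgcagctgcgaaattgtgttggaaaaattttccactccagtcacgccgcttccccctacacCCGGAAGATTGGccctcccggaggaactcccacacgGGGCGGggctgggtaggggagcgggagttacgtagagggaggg
MED22/RPL7A, chr9:136214986-136215073: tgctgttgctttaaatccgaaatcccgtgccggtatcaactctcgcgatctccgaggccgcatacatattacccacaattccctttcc
SURF1/SURF2, chr9:136223363-136223426: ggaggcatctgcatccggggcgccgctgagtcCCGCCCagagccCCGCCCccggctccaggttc
SARS2/MRPS12, chr19:39421403-39421584: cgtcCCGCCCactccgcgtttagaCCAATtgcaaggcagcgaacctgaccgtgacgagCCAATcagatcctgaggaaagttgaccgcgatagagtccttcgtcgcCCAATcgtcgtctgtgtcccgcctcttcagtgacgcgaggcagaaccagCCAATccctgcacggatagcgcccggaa

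The printed stretches were chosen for their RNA values, so no share is read from them. Those of XPO5/POLH and SURF1/SURF2 hold 2 GC boxes each, that of SARS2/MRPS12 holds 4 CCAAT boxes, and that of MED22/RPL7A holds none of the motifs. Over all members, the 300 bp from 250 before to 50 after each TSS were compared with the same window at kept peaks with a single gene and at all canonical protein-coding TSSs. The windows of 2 partners often overlap and then share sequence, so the shares below are descriptions without a test. A GC box was found in 74.1% of the member windows, against 77.4% at kept single-gene peaks and 61.4% of all 19881 windows. The TATA box (TATAAA) was rare, at 2.93% against 4.22 and 9.62%. The ETS core, the binding letters of ETS family factors, was found in 38.5% of the member windows against 26.3% at kept single-gene peaks and 14.1% of all. For the YY1 core (AAGATGGCG) the shares were 8.32, 6.38 and 2.85%, and for the NRF1 core (GCGCATGCG) they were 5.95, 5.32 and 2.71%. The CCAAT box hardly differed, at 37.1, 36.9 and 36%. Median GC content was 65.7% in the member windows, 66.3% at kept single-gene peaks and 63.7% over all.

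**Figure D1:**
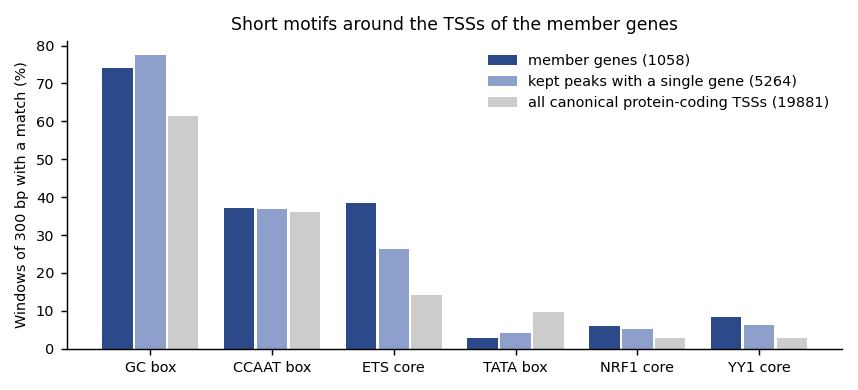
Bars give the share (%) of 300-bp windows around TSSs that hold each motif on either strand, for member genes (n = 1058), kept single-gene peaks (n = 5264) and all canonical protein-coding TSSs (n = 19881). The ETS core separates the 3 sets most among the motifs drawn, with 38.5, 26.3 and 14.1%.

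The rule used the overlap of the lists, so the shares of kept peaks that follow are descriptions only. Of 562 divergent NT peaks under 3000 bp, 94.1% overlapped a peak in all the other lists, against 77.8% of 239 peaks with genes on the same strand only and 70.6% of 7461 peaks with a single gene. The shares are also given by width. In NT peaks under 500 bp, 75% of 44 divergent and 50.4% of 2492 single-gene peaks were kept. From 500 to 999 bp the shares were 95.5% of 267 and 77.9% of 3036, from 1000 to 1499 bp 94.9% of 137 and 86.1% of 1217, and from 1500 to 2999 bp 97.4% of 114 and 83.1% of 716.

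**Figure D2:**
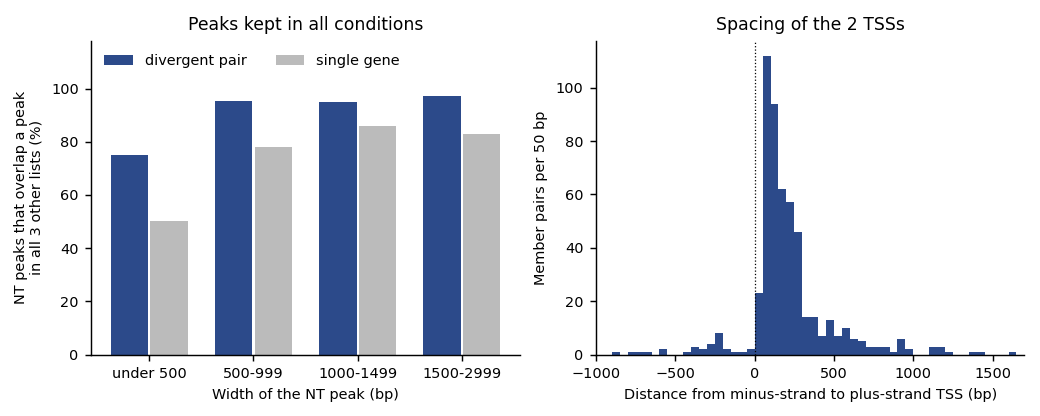
Left, share (%) of NT peaks that overlap a peak in all 3 other lists, by width of the NT peak, for divergent and single-gene peaks. Right, number of member pairs per 50 bp of distance from the minus-strand to the plus-strand TSS, where negative distances are pairs with the plus-strand TSS at the lower position and the pair at -2271 bp lies off the axis. Most pairs sit between 0 and 300 bp.

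The 33 divergent peaks that were not kept had a median width of 653 bp, against 970 bp for the members. They include DST/BEND6, of which neither the TPL lists nor the TAM list holds a peak, SGCE/PEG10, missing from both TPL lists, and SUPT7L/SLC4A1AP, missing only from the TAM list. The width limit itself lies among wide peaks. The widest members were NUDCD2/HMMR (2966 bp) and L3HYPDH/JKAMP (2972 bp), and just outside it were YRDC/C1orf122 (3010 bp) and FAM83H/IQANK1 (3067 bp).

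Members were kept, but their peaks did not keep their outline. The widest overlapping peak had a median of 970 bp (NT), 812 bp (NT + TPL), 540 bp (TAM) and 635 bp (TAM + TPL). Peaks were narrower than in NT at 59.7% (NT + TPL), 96% (TAM) and 83.2% (TAM + TPL) of the members. Single NT peaks also fell apart, since more than 1 peak covered 55 members (NT + TPL), 138 (TAM) and 74 (TAM + TPL). The lists cannot be compared in width alone. Peak names carry a threshold of 0.1 in the TAM list and of 0.02 in the others, each list is named for replicate 1, and whether replicates were pooled is not given in the sources used here. The median width over all peaks of a list moved in the same order, at 632, 553, 406 and 456 bp in the order just given. The part of the calling threshold in these widths was not tested.

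The rule required both TSSs to lie within the NT peak but not within the peaks of the other lists. Both lay within a peak at 480 members (90.7%) with NT + TPL, 452 (85.4%) with TAM and 462 (87.3%) with TAM + TPL. A single TSS was left in the peak at 43, 75 and 60 members, and neither at 6, 2 and 7. Where a single TSS was left and both RNAs were listed, the TSS outside the peak was that of the gene with the lower FPKM in 31 of 42 members (NT + TPL), 51 of 72 (TAM) and 48 of 59 (TAM + TPL). FPKM is the count scaled by transcript length and library size, as RSEM gave it. Peaks also tended to reach farther on the side of the more abundant RNA, though not at every pair. In the 464 tested pairs that point apart, the peak reached a median of 339 bp past the TSS of the higher gene and 282 bp past that of the lower gene in NT cells, and 342 and 286 bp in NT + TPL cells. In TAM cells the medians were 196 and 184 bp, and in TAM + TPL cells 259 and 199 bp. The reach was larger on the side of the higher gene in 58.8% (NT), 58.4% (NT + TPL), 61.4% (TAM) and 63.4% (TAM + TPL) of these pairs. Spearman's rho between the difference in reach and the difference in log2(FPKM + 1) across these pairs was 0.208 (NT), 0.228 (NT + TPL), 0.23 (TAM) and 0.329 (TAM + TPL). Pairs in 1 list share its threshold and depth, so no p is given.

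At XPO5/POLH the NT peak reached 744 bp past the XPO5 TSS and 276 bp past the POLH TSS. It measured 1168 bp (NT), 617 bp (NT + TPL), 402 bp (TAM) and 677 bp (TAM + TPL), and both TSSs stayed within it. At MBLAC2/POLR3G the 1943 bp NT peak, which lay mostly over MBLAC2, was replaced by peaks of 452 bp in NT + TPL and 427 bp in TAM + TPL cells. The first lay mostly over POLR3G, and the second reached about as far on either side of the TSSs. At PPAT/PAICS the 1801 bp NT peak was listed as 2 peaks in each other condition, and the PPAT TSS lay just outside them in NT + TPL cells. INTS7/DTL went another way. The NT and NT + TPL peaks of 890 and 1011 bp held both TSSs, while those of 412 bp in TAM and 210 bp in TAM + TPL cells held the INTS7 TSS only.

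**Figure D3:**
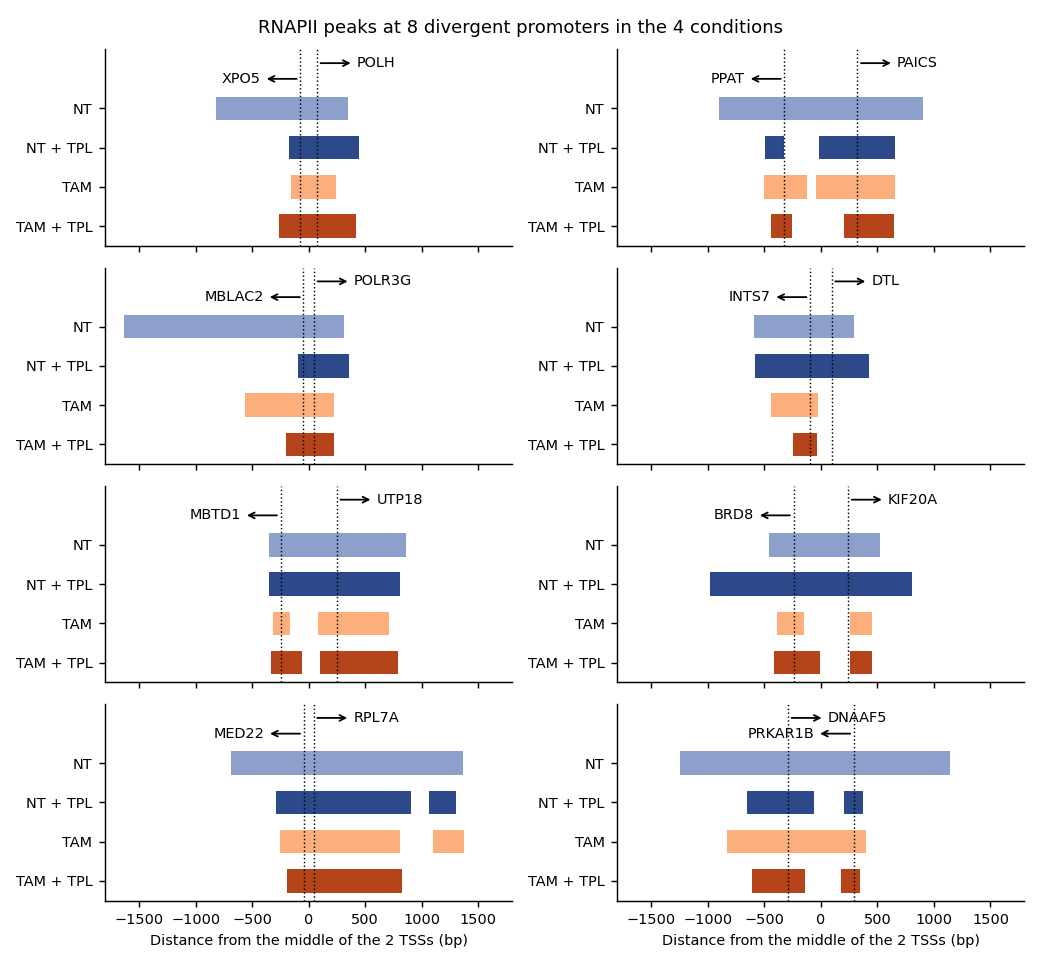
Bars are the listed RNAPII peaks of 8 member promoters in the 4 conditions, against the distance (bp) from the middle of the 2 TSSs. Dotted lines and arrows mark each TSS and the direction of its gene. NT peaks span both TSSs in all 8 because the rule required it, and at INTS7/DTL the TAM and TAM + TPL peaks stop before the DTL TSS.

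RNA was read from 8 libraries of 7461309 to 8349448 expected counts. The epithelial label was checked on 8 keratinocyte and adhesion markers, and 7 of them were above 1 FPKM in every library. TP63, the basal factor, was the exception, with 13.16 to 24.19 FPKM in the DMSO libraries and 0.28 to 0.89 with TPL. KRT5 was between 5776.13 and 6249.55 FPKM in NT libraries and between 1307.94 and 1308.36 FPKM in TAM libraries. Of 8 markers of other cell types, CDH5 was listed in none and CD3E stayed under 1 FPKM. CD68, a lysosomal protein used as a macrophage marker, was at 47.06 and 47.20 FPKM in NT and at 280.55 and 301.14 FPKM in TAM libraries, with 76.98 and 88.96 (NT + TPL) and 407.40 and 472.93 (TAM + TPL), and ACTA2 ranged from 7.94 to 21.21 FPKM. PTPRC, the defining leukocyte marker, was between 0.16 and 2.14 FPKM. Their part in the results below was not tested. In bulk RNA, fewer cells of a type and less RNA per cell cannot be told apart.

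The partners of a shared peak were not expressed at like levels. Member genes had a median FPKM of 9.64 (NT), 8.13 (NT + TPL), 10.1 (TAM) and 8.5 (TAM + TPL), and 91% of them were at 1 FPKM or more in NT cells. Both partners reached 1 FPKM in NT cells in 428 of the 529 pairs. NT levels differed by 4-fold or more between partners in 206 of 489 pairs (42.1%), and the plus-strand gene was the higher one in 253. Across pairs, Pearson's r of log2(FPKM + 1) between partners was 0.058 in NT and 0.061 in TAM + TPL cells. The order within a pair was steady, since the same partner was higher in all 8 libraries in 346 pairs (70.8%).

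With TPL, a smaller share of member genes than of all genes passed as higher, by either of 2 thresholds. A smaller share passed as lower by the stricter threshold and a larger share by the wider one. The stricter call, with the thresholds of the study's methods, sets the adjusted p limit at 0.001 together with a change of 1.2 or more in either direction on the log2 scale, and the wider one only sets the adjusted p limit at 0.05 (edgeR quasi-likelihood test, Benjamini-Hochberg adjustment over 15754 genes). In NT cells, TPL raised 21 of 1015 member genes (2.07%) and lowered 70 (6.9%) by the stricter call, against 4.32 and 8.4% of all genes tested. By the wider call 198 rose (19.5%) and 277 fell (27.3%), against 23.5 and 24.1% of all genes. In TAM cells, 16 member genes (1.58%) were called higher and 68 (6.7%) lower, against 3.95 and 7.31% of all, and by the wider call 126 rose (12.4%) and 287 fell (28.3%), against 20.4 and 23.5%. At kept single-gene peaks the stricter shares were 3.45 and 10.5% in NT and 3.11 and 8.1% in TAM cells. The wider shares there were 17.4 and 33% in NT and 13.4 and 30.8% in TAM cells. Fewer rises and more falls than over all genes by the wider call were thus also seen at single-gene peaks.

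Member genes had median log2 fold changes of -0.02 (NT) and -0.15 (TAM), against 0.10 and 0.05 over all genes. Genes of kept single-gene peaks had medians of -0.20 and -0.21, and those of single-gene peaks that were not kept had -0.33 and -0.40. These last genes were also called lower more often, at 15.9% in NT and 16.0% in TAM cells. That was not so for genes of divergent peaks that were not kept (64 tested), which had medians of -0.09 and -0.26. Of these, 1.56% (NT) and 3.12% (TAM) were called lower and 7.81 and 6.25% higher. The balance of the calls depends on the scaling. Of the stricter calls among members, 23.1% (NT) and 19% (TAM) were rises, but with upper quartile scaling 45.7 and 40.6% were, and with equal GAPDH 7.28 and 11.1%. Those scalings shifted the median of all genes by 0.22 and 0.24 (upper quartile) and by -0.36 and -0.12 (GAPDH). A scaling moves all genes alike, so it leaves the distance between the median of members and that of all genes as it is.

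The counts of calls depended on single libraries. For TPL in NT cells, the stricter calls were 7 and 3 higher and 37 and 30 lower without NT replicate 1 and 2, and 36 higher and 97 lower without NT + TPL replicate 1. Leaving out TAM replicate 1, TAM replicate 2 or TAM + TPL replicate 2, which enter the fit but not this comparison, gave 13, 13 and 12 higher. For TPL in TAM cells, the calls were 2, 0, 1 and 1 higher and 16, 19, 10 and 9 lower without TAM replicate 1, TAM replicate 2, TAM + TPL replicate 1 and TAM + TPL replicate 2. With the entries kept as deposited, instead of summed per gene, 6 and 23 were called higher and lower in NT cells and 1 and 20 in TAM cells, and with a fit of the 2 groups alone 0 and 5 in NT cells.

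The genes that were called were mostly called in both cell states, which share no library. The TPL calls were 91 member genes (NT) and 84 (TAM), of which 56 were called in both (61.5 and 66.7% of the lists) and all 56 in the same direction. Pearson's r of the TPL log2 fold change between the states was 0.8 over the 1015 member genes. Neither the overlap nor this r is given for all genes, so neither is read as a trait of the members. For the difference between the TPL effects (interaction), 0 member genes passed either threshold in edgeR, against 0.0127 and 0.00635% of all genes by the stricter call (higher and lower) and 0.482 and 0.368% by the wider one. At an unadjusted p under 0.05, 30 of 1015 member genes were higher and 70 lower, against 937 and 981 of all 15754 genes tested.

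The changes of the 2 partners with TPL were weakly related across pairs. Across the 489 pairs, Pearson's r between the partners' TPL log2 fold changes was 0.042 in NT and 0.078 in TAM cells, and Spearman's rho was 0.0085 and 0.055. For scale, the difference between the 2 replicates of a group gave r between 0.026 and 0.086 across the same pairs. The r was 0.041 and 0.054 for pairs at or under the median gap and 0.042 and 0.099 for pairs over it. For the 263 pairs with both genes at 5 FPKM or more on average it was 0.021 and 0.13. Between TAM and NT cells with DMSO, r was 0.13 over all pairs and 0.25 over those 263. In the 31 tested pairs of divergent peaks that were not kept the r for TPL was -0.056 and -0.095. Between TAM and NT cells with DMSO, r over those 31 pairs was 0.57 and Spearman's rho 0.33. All these pairs come from the same libraries, and no p is given. PTCD1, whose fold change of -10.19 (SE 3.37, adjusted p = 0.029) lies far from the others, was at 6.51 and 0.00 FPKM in NT and 0.00 and 0.00 FPKM in NT + TPL libraries, and r without its pair was 0.035 in NT cells.

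By the wider call in NT cells, both partners rose in 19 pairs, both fell in 36 and they moved in opposite directions in 54, while a single partner rose in 97, a single partner fell in 142 and neither passed in 141. In TAM cells the numbers were 9, 42, 29, 75, 164 and 170. Such counts depend on the shares of member genes that rose and fell (19.5 and 27.3% in NT, 12.4 and 28.3% in TAM cells). They are not set against counts for unrelated genes. By the stricter call, both partners were called in 4 pairs in NT cells (3 lower, 1 opposite) and in 3 in TAM cells (2 lower, 1 opposite). The log2 fold changes of partners differed by 1 or more in 218 pairs (44.6%) in NT and in 187 (38.2%) in TAM cells. This difference within a pair was itself similar in the 2 states, with r of 0.802 across 489 pairs. That is close to the r of 0.8 for single member genes, and no r for unrelated genes is given. It is therefore not read as a trait of the pairs.

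**Figure D4:**
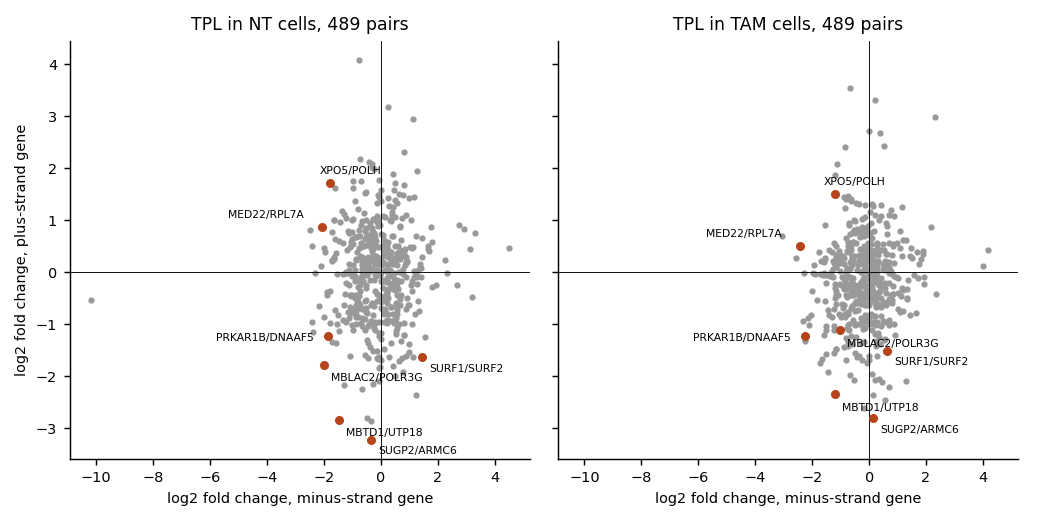
Each point is a pair (n = 489), with the TPL log2 fold change of the minus-strand gene on the horizontal axis and that of the plus-strand gene on the vertical axis, in NT (left) and TAM cells (right). The cloud has no slope that can be seen, with r of 0.042 and 0.078, and the point at -10.19 is PTCD1/CPSF4.

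XPO5/POLH was the pair in which both partners were called in opposite directions, and it was so in both cell states. XPO5 exports microRNA precursors from the nucleus and POLH encodes the translesion polymerase eta, and their TSSs are 147 bp apart. XPO5 was at 17.39 and 22.93 FPKM (NT), 6.15 and 5.70 (NT + TPL), 19.66 and 16.75 (TAM) and 7.60 and 8.68 (TAM + TPL) in the libraries. POLH was at 9.30 and 9.14, 24.86 and 35.92, 10.37 and 8.60, and 29.84 and 25.82 FPKM in the same order. With TPL the order of the 2 RNAs was reversed, and the TPL libraries did not overlap the DMSO libraries for either gene. XPO5 fell by 1.78 on the log2 scale in NT (SE 0.191, adjusted p = 3.25e-05) and by 1.21 in TAM cells (SE 0.187, adjusted p = 0.00043). POLH rose by 1.71 (SE 0.212, adjusted p = 8.24e-05) and 1.51 (SE 0.211, adjusted p = 0.000216). Directions held in every alternative, but the stricter call did not. Over the alternatives the adjusted p reached 0.00166 (NT) and 0.0111 (TAM) for XPO5 and 0.00263 and 0.00729 for POLH, and the fall of XPO5 in TAM cells was under the limit of 1.2 with 3 of the 4 other scalings.

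Both partners of MBLAC2/POLR3G were called lower in NT cells, from TSSs 93 bp apart. POLR3G, a subunit of RNA polymerase III, was at 20.25 and 25.20 FPKM (NT), 6.06 and 7.22 (NT + TPL), 22.57 and 26.10 (TAM) and 10.97 and 12.24 (TAM + TPL) in the libraries. MBLAC2, a metallo-beta-lactamase domain protein, was at 4.14 and 5.91, 1.77 and 0.79, 3.38 and 3.50, and 1.78 and 1.69 FPKM. Their log2 fold changes were -1.78 (SE 0.199, adjusted p = 4.22e-05) and -1.99 (SE 0.334, adjusted p = 0.000666) in NT cells. In TAM cells they were -1.12 and -1.04, which passed the wider call only.

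UTP18, a component of the complex that processes ribosomal RNA, was at 14.98 and 16.18 FPKM (NT), 2.34 and 2.02 (NT + TPL), 11.62 and 14.69 (TAM) and 2.61 and 2.72 (TAM + TPL) in the libraries. Its partner MBTD1, a chromatin reader, was at 3.42 and 4.05, 1.58 and 1.12, 3.22 and 3.12, and 1.38 and 1.5 FPKM. Both were lower in every TPL library than in any DMSO library, and the change of UTP18 was the larger, by -2.84 (SE 0.248) against -1.48 (SE 0.249) in NT cells.

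PRKAR1B, a regulatory subunit of protein kinase A, and DNAAF5, an assembly factor of ciliary dyneins, were called lower in both states. PRKAR1B was at 38.25 and 32.46 FPKM (NT), 9.26 and 10.74 (NT + TPL), 24.97 and 23.01 (TAM) and 5.43 and 5.13 (TAM + TPL) in the libraries, and DNAAF5 at 15.42 and 17.81, 7.45 and 7.01, 17.57 and 15.77, and 7.68 and 7.04 FPKM. Their 5′ ends overlap by 582 bp and the sources used here do not say that reads were counted by strand, so reads from the overlap cannot be told apart. In TAM cells AK6 and RAD17, the clamp loader of the checkpoint response, were also both called lower (-2.27 and -1.32). Their peak also holds the TSS of TAF9, which shares exons with AK6, so the AK6 value is uncertain.

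**Figure D5:**
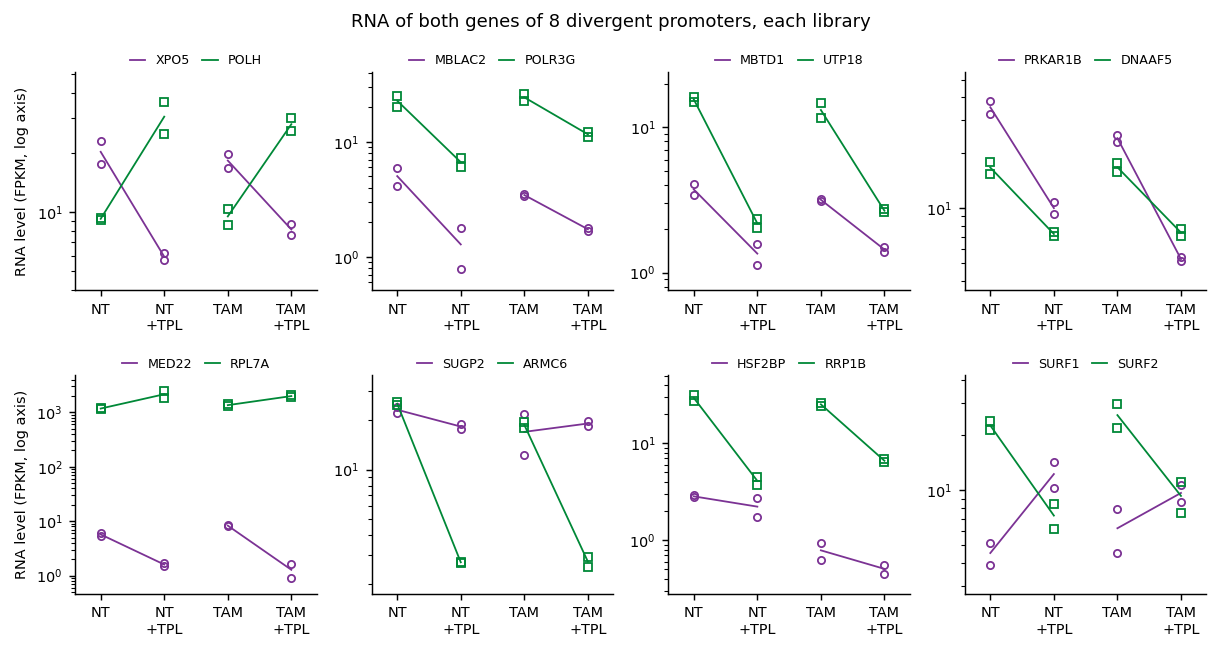
Points are the RNA level (FPKM, log axis) of each library for both genes of 8 member promoters, circles for the minus-strand and squares for the plus-strand gene. Lines join the means of 2 libraries with DMSO and with TPL within a cell state. XPO5 and POLH cross with TPL in both states, and ARMC6 is the lowest in the TPL libraries of its promoter.

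Where any partner passed the stricter call, it was a single one in most pairs, as is likely where few genes are called (2.07% higher and 6.9% lower in NT cells). ARMC6, 86 bp from the TSS of SUGP2, had the largest fall among the called members in both states. It was at 25.73 and 24.69 FPKM (NT), 2.71 and 2.74 (NT + TPL), 19.51 and 17.94 (TAM) and 2.94 and 2.56 (TAM + TPL) in the libraries, which gave log2 fold changes of -3.22 (SE 0.200, adjusted p = 1.28e-06) and -2.81 (SE 0.198, adjusted p = 3.13e-06). SUGP2, a G-patch protein related to splicing factors, had -0.34 (adjusted p = 0.24) and 0.13 (adjusted p = 0.671). RRP1B, a nucleolar protein, went from 27.63 and 31.37 FPKM (NT) to 4.5 and 3.69 FPKM (NT + TPL), and in the transformed cells from 26.13 and 24.47 to 6.35 and 6.87. Its partner HSF2BP, 72 bp away, was at 2.77 and 2.90 and then 2.72 and 1.72 FPKM in NT cells and passed neither threshold in either state.

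Other large falls were those of TADA2A, an adaptor of acetyltransferase complexes (-2.81 in NT), CCDC51, a mitochondrial membrane protein (-2.49 in NT and -2.56 in TAM), and CHCHD4, which imports proteins into the mitochondrial intermembrane space (-2.41 and -2.16). LRRC61 had -2.40 and -2.59, and DTWD1, a tRNA-modifying enzyme, had -2.45 in TAM cells. The partners of these 5 genes did not reach the stricter call. ACACA, the acetyl-CoA carboxylase opposite TADA2A, had -0.47 (adjusted p = 0.114) in NT cells, TMA7 opposite CCDC51 rose by 0.81 (adjusted p = 0.0103) in NT cells, and TMEM43 opposite CHCHD4 fell by 0.96 (adjusted p = 0.00424). FAM227B opposite DTWD1 passed no threshold, and ACTR3C opposite LRRC61 had too few counts. Over all 67 tested partners of genes called lower in NT cells, the median log2 fold change was -0.06, with 17 that rose, 19 that fell and 31 that did not pass the wider call. Over the 66 tested partners of genes called lower in TAM cells it was -0.13, with 1 that rose, 22 that fell and 43 that did not pass.

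Called rises were fewer than falls, and the 2 largest in NT cells were in genes with few counts. EAF2, a partner of the ELL elongation factors, was at 0.36 and 0.24 FPKM (NT), 6.80 and 4.17 (NT + TPL), 0.59 and 0.24 (TAM) and 4.21 and 6.04 (TAM + TPL) in the libraries. Its counts were 5 in the NT libraries together and 85 with TPL, a ratio of 18.1 (95% exact interval 7.47 to 57.3, counting error only), and 7 and 82 in TAM cells, a ratio of 12.5 (5.81 to 32.1). MORN1 had 3 counts in NT and 69 in NT + TPL libraries, a ratio of 24.5 (8.05 to 122). IQCB1, 149 bp from EAF2, fell by 0.77 in NT and 0.66 in TAM cells by the wider call, and RER1 opposite MORN1 had 0.46 (adjusted p = 0.0651) and 0.26 (adjusted p = 0.288).

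DOCK4, an activator of small GTPases, rose by 3.14 in NT and 1.91 in TAM cells, and TSGA10 by 2.68 and 1.88. DOCK4 was at 0.20 and 0.51 FPKM in NT and 3.86 and 2.51 FPKM in NT + TPL libraries. ZNF277 opposite DOCK4 and LIPT1, 25 bp from TSGA10, passed no threshold in either state. DNAI4 (3.2) and HMMR (3.18) were called higher in NT cells, and BTBD19 (2.98) and RETSAT (1.68) in TAM cells. Counts were low here too, at 7 and 2 for DNAI4 and 14 and 3 for HMMR in NT libraries. BTBD19 had 22 and 9 counts in TAM libraries. RETSAT, which saturates retinol, was the most abundant of these called genes, at 13.04 and 16.45 FPKM (NT), 58.17 and 43.71 (NT + TPL), 13.01 and 11.07 (TAM) and 38.59 and 41.24 (TAM + TPL) in the libraries. ELMOD3 opposite it had -0.29 (adjusted p = 0.405) and 0.39 (adjusted p = 0.256).

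MED22/RPL7A, with TSSs 87 bp apart, and SURF1/SURF2 both belong to the Surfeit cluster of housekeeping genes on chromosome 9. MED22, a Mediator subunit, was at 6.03 and 5.41 FPKM (NT), 1.5 and 1.7 (NT + TPL), 8.37 and 8.23 (TAM) and 1.66 and 0.90 (TAM + TPL) in the libraries. RPL7A, a ribosomal protein, was at 1211.52 and 1143.73, 1828.78 and 2485.18, 1301.01 and 1418.88, and 1885.90 and 2107.89 FPKM. MED22 fell by 2.07 and 2.44 and RPL7A rose by 0.87 in NT cells by the wider call (adjusted p = 0.00364), with 0.51 (adjusted p = 0.0522) in TAM cells. RPL7A has many processed copies in the genome, so its reads may be shared. At SURF1/SURF2, with TSSs 63 bp apart, SURF1, an assembly factor of cytochrome c oxidase, went from 3.91 and 5.16 to 10.27 and 14.23 FPKM in NT cells (1.43, adjusted p = 0.0064). SURF2 went from 23.89 and 21.26 to 6.11 and 8.42 FPKM (-1.64, adjusted p = 0.00103).

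Pairs known from textbooks were looked for by name, and 13 of 30 were members. In PPAT/PAICS, enzymes of purine synthesis 645 bp apart, PPAT fell by 2.38 (NT) and 2.34 (TAM). It was at 10.49 and 11.93 FPKM (NT), 2.36 and 1.97 (NT + TPL), 9.16 and 9.79 (TAM) and 1.92 and 1.93 (TAM + TPL). PAICS fell less, by 1.15 and 0.94, and stayed far more abundant, at 54.98 and 38.86 FPKM in NT + TPL libraries. In SARS2/MRPS12, the mitochondrial seryl-tRNA synthetase and a mitochondrial ribosomal protein, both fell by the wider call (-1.15 and -0.77 in NT, -1.42 and -0.83 in TAM). HARS1 and HARS2, the cytosolic and mitochondrial histidyl-tRNA synthetases 85 bp apart, also fell by the wider call in both states, though these related genes may share some reads.

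GART, of purine synthesis, and SON, a splicing cofactor, fell by 0.91 and 0.49 in NT cells by the wider call and had -0.19 and -0.27 in TAM cells. Neither partner of RECQL/GOLT1B, PRKDC/MCM4, CHEK2/HSCB, SIRT3/PSMD13 or COL4A1/COL4A2 reached the stricter call with TPL. COL4A1 and COL4A2, which encode the chains of collagen IV, rose together in TAM cells by the wider call, by 1.10 (adjusted p = 0.00135) and 0.79 (adjusted p = 0.00315), and had 0.16 and 0.05 in NT cells. At TMEM258/FEN1, TMEM258 rose by 1.09 in NT cells (adjusted p = 0.00891) while the flap endonuclease FEN1 had -0.36 (adjusted p = 0.34). In TAM cells FEN1 fell by 1.01 (adjusted p = 0.0101) and TMEM258 had 0.69 (adjusted p = 0.0651). BRCA2, of homologous recombination, was low, between 0.17 and 0.96 FPKM in all libraries, and its partner ZAR1L had too few counts for a test.

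Gene lists that these promoters often serve were counted next, by the wider call unless stated. Over all genes tested, 23.5% rose and 24.1% fell in NT cells and 20.4 and 23.5% in TAM cells by this call. Of 26 member genes for respiratory chain subunits and assembly factors, 12 rose and 2 fell by the wider call in NT cells, with a median of 0.44, and 1 rose and 2 fell in TAM cells, with a median of 0.03 that is negative with equal GAPDH. NDUFA2, of complex I, was at 35.78 and 27.78 FPKM in NT and 54.74 and 95.11 in NT + TPL libraries, a change of 1.26 (adjusted p = 0.00384), while SDHA, of complex II, fell by 0.74 in NT and 1.26 in TAM cells. Genes of this list outside the members had like medians, 0.54 in NT and 0.19 in TAM cells (n = 94). Among them 42 rose and 7 fell in NT cells, and 11 rose and 7 fell in TAM cells.

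Of 20 mitochondrial ribosomal proteins among members, 1 rose and 6 fell in NT and 0 rose and 10 fell in TAM cells by the wider call. Their medians were -0.05 and -0.55, the first of which is positive with upper quartile scaling. MRPL14 and MRPS34 fell by 1.28 and 1.26 in TAM cells by the stricter call. The other 62 genes of the list had medians of -0.39 and -0.53. Among them 7 rose and 23 fell in NT cells, and 3 rose and 29 fell in TAM cells.

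Of 20 members of the transcription machinery, 3 rose and 10 fell in NT cells and 2 rose and 10 fell in TAM cells by the wider call, with medians of -0.50 and -0.49 that kept their sign in the 4 other scalings. Of all genes tested, 23.5% rose and 24.1% fell in NT and 20.4 and 23.5% in TAM cells, and the 130 other genes of the list had medians of -0.14 and -0.23. Beside MED22 and POLR3G, given above, the genes named from this list were MED8, which went from 14.37 and 11.85 to 4.25 and 3.10 FPKM in NT cells (-1.88), and the Integrator subunit INTS13, which went from 11.96 and 13.05 to 5.06 and 3.29 FPKM (-1.59). Of 8 DNA replication genes, 1 rose and 4 fell in NT and 0 rose and 4 fell in TAM cells, with medians of -0.51 and -0.61, against -0.10 and -0.54 for the 38 other genes of the list. DBF4, the activator of the CDC7 kinase, fell by 1.63 and 1.58. Of 17 genes of DNA repair and checkpoints, 1 rose and 4 fell in NT and 0 rose and 7 fell in TAM cells, and the share of falls in NT cells was near that over all genes. Their medians (0.08 and -0.18) change sign with the scaling, and those of the 61 other genes of the list were -0.34 and -0.46. PALB2, of homologous recombination, fell by 2.30 in NT and 1.55 in TAM cells. PMS1, of mismatch repair, fell by 1.95 in TAM cells. PMS2, which has near-identical copies, had -1.73 and -1.46.

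The zinc finger genes were mixed, with 4 that rose and 4 that fell of 23 in NT cells and 8 and 4 in TAM cells. Among the 546 other genes of this list, 104 rose and 119 fell in NT cells and 152 and 101 in TAM cells. ZNF791 rose by 1.42 and 1.25, ZNF721 by 0.89 and 1.47, and ZNF142 fell by 1.88 and 0.91. Of 7 tRNA synthetases 3 fell and 0 rose in each state. Among the 31 others, 12 fell and 1 rose in NT cells and 9 fell and 4 rose in TAM cells. The 3 proteasome subunits PSMA2, PSMC5 and PSMD13 passed no threshold. Of 12 replication-dependent histone genes 4 had enough counts in this poly-A RNA, and 3 rose in NT and 2 in TAM cells by the wider call. Among the 27 other histone genes of the list, 14 rose in NT and 9 in TAM cells. H2AC25 was at 17.25 and 19.67 FPKM in NT and 35.93 and 46.43 in NT + TPL libraries, and histone genes have near-identical copies that can share reads. No member belonged to the list of immediate early and inflammatory genes, of which 35 others were tested with medians of -1.78 in NT and -2.01 in TAM cells.

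Between TAM and NT cells with DMSO, 9 member genes (0.887%) were called higher and 0 lower, against 1.47 and 1.48% of all genes. At an unadjusted p under 0.05, 124 of 1015 member genes were higher and 45 lower, against 1695 and 1886 of all 15754 genes tested. DESeq2 called 21 members higher and 0 lower, and its share over all genes is not given. By the wider call 53 were higher (5.22%) and 10 lower (0.985%), against 5.16 and 5.59% of all genes. Without NT replicate 2, TAM replicate 1 or TAM replicate 2, 0 were called higher, and without NT replicate 1 there was 1. Without TAM + TPL replicate 1 or 2, which enter the fit but not this comparison, there were 5 and 4, and without either NT + TPL library there were 22. With TPL in both states, 2 members were called higher and 1 lower, against 1.11 and 1.49%, and by the wider call 47 and 40, against 4.82 and 7.06%.

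DTL, a substrate receptor of a ubiquitin ligase, was at 1.14 and 1.01 FPKM in NT and 6.54 and 6.58 FPKM in TAM libraries, a rise of 2.64 (SE 0.268, adjusted p = 5.62e-05). Its partner INTS7 was at 13.90 and 14.54 and at 15.45 and 16.00 FPKM (0.14, adjusted p = 0.706), and this is the pair at which the TAM peak held the INTS7 TSS only. KIF20A, a mitotic kinesin, was at 1.51 and 1.2 FPKM in NT and 7.51 and 6.78 FPKM in TAM libraries (2.41), and TACC3, a spindle protein, at 2.02 and 0.99 and at 8.18 and 7.4 FPKM (2.38). AURKA, a mitotic kinase, went from 3.81 and 3.42 to 13.46 and 17.23 FPKM (2, adjusted p = 0.000213) and fell to 4.40 and 5.33 FPKM in TAM + TPL libraries. The partners BRD8, TMEM129 and CSTF1 passed no threshold between TAM and NT cells. TMEM129, opposite TACC3, rose with TPL instead, by 1.12 in NT and 1.43 in TAM cells, while TACC3 had 0.49 in NT and fell by 0.83 in TAM cells.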

How the data were processed

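RNA-Seq (8 libraries) and RNAPII ChIP-Seq peak lists (1 per condition) of MCF10A-ErSrc cells were used. Expected counts per entry come from RSEM after Bowtie2 alignment of poly-A RNA and were deposited by the authors without normalization, and the FPKM values were deposited from the same RSEM runs. The peak positions were deposited after the authors had run SOAP2 (hg19) and MACS (version 1.4.2, against input) and had listed those described as holding a TSS. They hold no height or score. Positions are counted from 1.

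The expected counts were summed over the entries of a gene (1067 genes had more than 1 of the 23604 entries), rounded and tested in a single fit of the 4 groups with edgeR 4.0.16 in R 4.3.3 (TMM, filterByExpr, quasi-likelihood test). Library totals were 7461309 to 8349448 expected counts. The biological coefficient of variation was 0.179. FPKM values were likewise summed over the entries of a gene. Whether reads were counted by strand is not given in the sources used here. Names came from a RefSeq table, and 16705 genes were joined to GENCODE by symbol and 133 by an older symbol. Windows were read from GRCh37, within whose lengths all 39213 listed peaks on the numbered chromosomes, X and Y end. With 2 replicates per group, adjusted p values rest on spread shared across genes. Intervals of ratios cover counting error only. Alternatives were 4 other scalings, other filters on low counts, DESeq2 1.42.0, limma 3.58.1 on log2(FPKM + 1) and log2(FPKM + 0.1), a replicate block, and leaving out each library. Replicates of a group differed by more than sampling noise (chi-square per degree of freedom 6.9 to 31.5). Peaks and windows were handled in Python 3.11.15. The scripts were tested on simulated data.

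The members and gene lists were chosen with earlier results of these data known. Genes were named by a rule: textbook pairs found among members, pairs with both genes called (up to 6 per direction), the 6 largest called rises and falls with TPL in each state (4 for TAM against NT and the interaction) at a mean of at least 1 FPKM with their partners, the 2 closest and 2 most distant pairs, and up to 3 genes of each list. PTCD1, the pairs not kept and those at the width limit fall outside it and were named after their values were seen. The ChIP reads and inputs were not used here. A textbook pair and the stretch between the TSSs of another pair are not reported here.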

Additional observations from a re-analysis of the deposited data

How the results depend on the processing

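All numbers here are member genes unless stated, higher before lower. With 21 and 70 genes called for TPL in NT cells, upper quartile scaling gave 42 higher, equal GAPDH 11 and 140, no filter on low counts 36 higher, a fit of the compared groups alone 0 and 5, entries as deposited 6 and 23, and an adjusted p of at most 0.05 with the same fold 63 higher. For TPL in TAM cells (16 and 68), upper quartile scaling gave 28 and 41, equal GAPDH 10 higher, entries as deposited 1 and 20, and the adjusted p of 0.05 45 higher. For TAM against NT with DMSO (9 and 0), equal GAPDH gave 3 and 1, no filter 24 higher, at least 10 counts in every library 14 higher, the compared groups alone 22 higher, DESeq2 21 higher, entries as deposited 0 higher, and the adjusted p of 0.05 33 and 2. For TAM against NT with TPL (2 and 1), DESeq2 size factors, upper quartile scaling and library size gave 4 higher each, equal GAPDH 3 lower, no filter 6 and 4, at least 10 counts 4 and 2, the compared groups alone 1 and 0, DESeq2 8 and 2, entries as deposited 1 and 0, and the adjusted p of 0.05 13 and 6. For the difference between TPL effects, no filter gave 1 higher. The causes were not tested.

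Leaving out 1 library at a time gave 3 to 36 higher and 30 to 97 lower for TPL in NT cells, 0 to 21 and 9 to 94 for TPL in TAM cells, 0 to 22 and 0 to 0 for TAM against NT with DMSO, and 1 to 8 and 0 to 4 with TPL. The r between partners was 0.018 to 0.051 in NT and 0.069 to 0.083 in TAM cells. It was -0.0035 and 0.064 with at least 10 counts in every library, 0.013 in NT cells with limma on log2(FPKM + 1), and in TAM cells 0.092 with no filter, 0.092 with the compared groups alone and 0.052 with entries as deposited. The number of peaks was 488 with a lower width limit, 564 with no limit, 528 with 50% overlap and 790 with any transcript start.

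The deviations of same-numbered libraries correlated between -0.245 and 0.0759, so the replicate numbers were not used as pairs in the main fit. With 2 libraries per group, these values cannot settle whether libraries were made in pairs. With the replicate block, TPL in NT cells had 14 and 50 calls, TPL in TAM cells 10 and 52, and TAM against NT with DMSO 4 and 0. A crossed block, added after seeing the data, gave 20 and 75, 15 and 73, and 9 and 0. The r without PTCD1/CPSF4 was also added after seeing the data.

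Of 68 stricter calls of named genes, 48 were lost with entries as deposited, 27 with the compared groups alone, 21 with the replicate block, 16 with upper quartile scaling, 2 with DESeq2 and 1 to 37 without 1 library. With limma, 20 were lost on log2(FPKM + 0.1) and 17 on log2(FPKM + 1). No such gene changed direction in these settings.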
